A study of Mus musculus with 39 samples.

Results

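The kinesin superfamily was followed through mouse spermatogenesis in single-cell RNA-seq of whole dissociated testis. Members were taken by symbol alone: every gene whose name is Kif followed by a digit, or Kifc, which gave 44 of the 32285 genes in the files. Of these, 42 are genes of kinesins, among them the atypical Kif26a, which is without motor activity. The other two are Kif16bos, a non-coding RNA on the strand opposite Kif16b, and Kif1bp, a kinesin-binding protein (Kifbp in RefSeq). There was 1 library from a control testis, genotype Kdm6a fl/y; Cre-, and 1 from a conditional knockout (cKO), genotype Kdm6a fl/y; Ddx4-Cre+. Kdm6a is an X-linked gene for a histone H3K27 demethylase, both genotypes carry its floxed allele, and the Ddx4 promoter drives Cre in germ cells and not in the somatic cells of the testis. The labels used here give no age for these mice. The libraries were made with 10x Chromium 3′ v3.1 chemistry. Peak lists from cKIT+ spermatogonia of the same genotypes, 2 control and 3 cKO for ATAC-seq and again 2 and 3 for H3K27me3 CUT&Tag, were used for the members' promoters.

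Kinesins are ATP-driven motors that walk along microtubules or take tubulin off their ends. In dividing germ cells they build the spindle, move chromosomes and close the cell in cytokinesis, and in cells with a cilium or flagellum they carry cargo along the axoneme. In the testis, spermatogonia divide by mitosis, spermatocytes go through a long meiotic prophase and then the meiotic divisions, and spermatids no longer divide but build a flagellum and reshape the nucleus with a microtubule manchette. Conventional kinesins carry vesicles and organelles in many cell types.

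In the control library 11252 cell barcodes had at least 3000 UMIs (unique molecular identifiers, which count captured RNA molecules), and in the cKO library 8520. Their medians were 8410.5 and 8499 UMIs. Cells were assigned by marker genes to 5 germ-cell stages. Spermatogonia numbered 206 in the control and 169 in the cKO library, early spermatocytes 521 and 231, late spermatocytes 2125 and 1704, round spermatids 1880 and 1788, and elongating spermatids 5337 and 3853. Leydig cells numbered 70 and 72 and Sertoli cells 104 and 87. Macrophages, 12 and 7 cells, were too few to describe. The libraries shared 30 cell barcodes, where 14.1 would be drawn together at random from the list of barcodes. The somatic classes and the early germ cells held spermatid transcripts: the summed level of the elongating-spermatid marker list was 18366 CPM (UMIs of a gene per 1000000 UMIs of its class) in control and 14305 in cKO spermatogonia, 19190 and 11637 in early spermatocytes, and 27373 and 21638 in Sertoli cells, against 209401 and 226253 in elongating spermatids. Free RNA was therefore measured in barcodes with at most 100 UMIs. A level at or under it in both libraries is called background here and is not read as expression. How much of a cell's UMIs came from free RNA was not measured. A level called background may therefore still hold RNA of the cell itself.

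Levels are CPM of the summed UMIs of a stage in a library, with exact Poisson 95% intervals, and values are given as control, then cKO. With 1 library per genotype no test between genotypes was possible, and between stages none was run. The intervals cover counting error only, and the animal and the library cannot be told apart from the genotype. A change between neighbouring stages was counted when it was at least 2-fold in the same direction in both libraries, on CPM plus a pseudocount of 1, with intervals that did not overlap in either. Because CPM is a share of a cell's RNA, less RNA of a gene and more RNA of other genes cannot be told apart, and counts of members are also given under other scalings.

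The members held 231603 and 146920 UMIs in the germ-cell stages. Of the 44, 42 had at least 20 UMIs in each library and were compared between stages. The other two were Kif28 with 17 UMIs in all and Kif12 with 2. By the mean of both libraries, 21 of the 42 were highest in spermatogonia, 5 in early spermatocytes, 4 in late spermatocytes, 5 in round spermatids and 7 in elongating spermatids. Of the 18384 genes compared, 27.9%, 17.3%, 20.1%, 22.8% and 11.9% were highest in these stages. The members' numbers depended on the scaling: after TMM they were 15, 4, 9, 4 and 10 (18.5%, 11.3%, 25.2%, 22.1% and 22.9% of genes), after median-of-ratios scaling 18, 5, 3, 6 and 10 (21.7%, 13.2%, 17.4%, 21.9% and 25.8%), and as UMIs per cell 13, 1, 16, 7 and 5 (17.3%, 3.7%, 43.7%, 28.2% and 7.14%). In CPM the highest stage was the same in both libraries for 37 of 42. By role, again in CPM, 11 of the 16 spindle motors were highest in spermatogonia, 5 of the 9 cilium and flagellum motors in late spermatocytes or round spermatids, and of the 13 cargo motors 6 in spermatogonia and 4 in elongating spermatids, 1 of which, Kif1a, was at background there. The 5 of 9 cilium and flagellum motors became 4 after TMM and after median-of-ratios scaling, with 3 highest in elongating spermatids where CPM had 1, and 8 as UMIs per cell. The 11 spindle motors became 8 after TMM, 11 after median-of-ratios scaling and 5 as UMIs per cell, where 8 were highest in late spermatocytes. The 4 cargo motors highest in elongating spermatids numbered 4 under every scaling. Members at or under free RNA in both libraries numbered 11 of 42 in spermatogonia, 13 in early spermatocytes, 17 in late spermatocytes, 19 in round spermatids and 31 in elongating spermatids. The shares of all genes at background were 42.8%, 45.2%, 46.9%, 47.4% and 73.1%, so the 31 of 42 in elongating spermatids lay near the share of all genes.

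**Figure D1:**
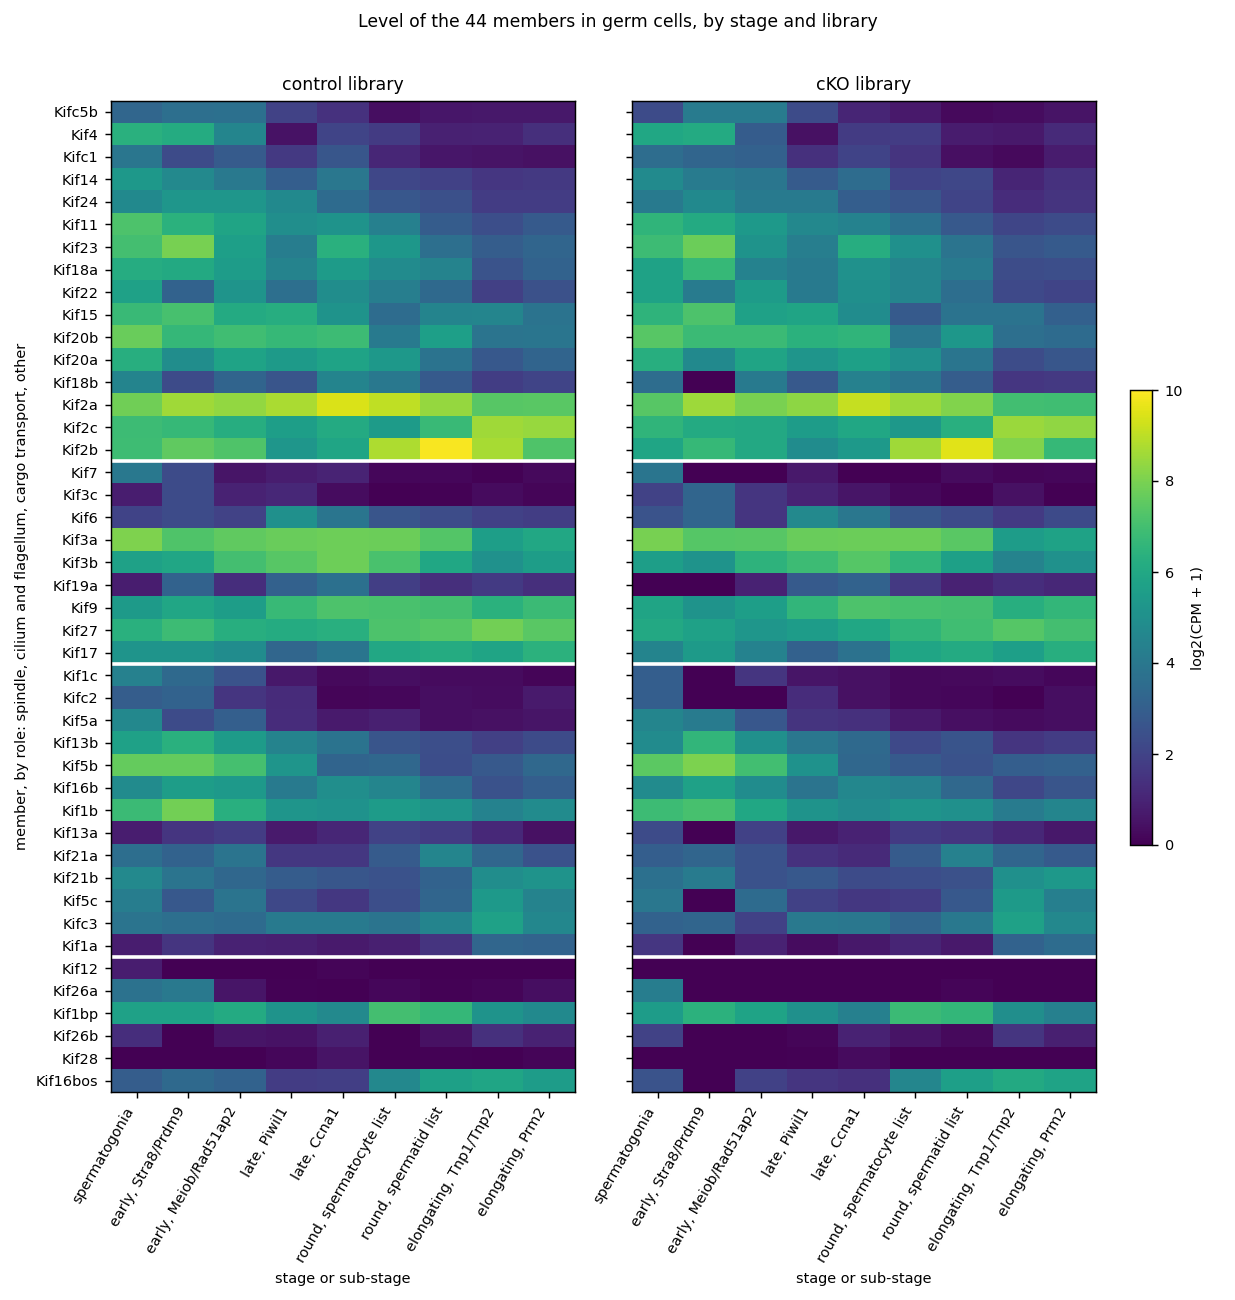
Heat map of log2(CPM + 1) for the 44 members (rows, ordered by role) over spermatogonia and the sub-stages of later germ cells (columns), with the control library beside the cKO library. Brighter cells are higher levels. Most spindle motors are brighter in the left columns than in the right ones, and Kif2a, Kif2b and Kif2c are the brightest of that list in the spermatid columns.

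From spermatogonia to early spermatocytes 0 members rose and 5 fell: Kif7, Kif5a, Kif26a, Kif11 and Kif4. Over the 18384 genes compared, 3.6% rose and 6.99% fell. From early to late spermatocytes 3 members rose and 10 fell, against 9.9% and 19.9% of all genes. From late spermatocytes to round spermatids 6 rose and 11 fell, against 21.8% and 23.6%. From round to elongating spermatids 5 rose and 12 fell, against 6.03% and 26.8%. Many counted changes started or ended at background. Only the first stage was at background for all 3 rises from early to late spermatocytes and all 6 from late spermatocytes to round spermatids. The same held for 4 of the 5 rises from round to elongating spermatids. Over all genes it held for 82.9%, 88.0% and 59.3% of the rises at these steps. Only the second stage was at background for 2 of 10, 5 of 11 and 10 of 12 falls at these steps. Over all genes this held for 42.5%, 81.7% and 79.2% of the falls. Changes with both stages at background are not in these counts and shares. Both stages were at background for the falls of Kif5c, Kif17, Kif2b and Kif21a from early to late spermatocytes and of Kif5b from late spermatocytes to round spermatids, and for the rise of Kif1a. The median log2 change of the members was -0.51, -0.76, -0.32 and -0.42 at the 4 steps in order, beside 0.00, -0.27, -0.10 and -0.43 over all genes.

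The balance of rises and falls depended on the scaling. For spermatogonia to early spermatocytes there were 0 rises and 5 falls in CPM, 3 falls after TMM and 5 under each of the other scalings. For early to late spermatocytes the counts of rises and falls were 3 and 10 in CPM, 6 and 3 after TMM, 3 and 6 after median-of-ratios scaling, and 16 and 1 as UMIs per cell. For late spermatocytes to round spermatids they were 6 and 11, 7 and 9, 8 and 7, and 5 and 17 in the same order. For round to elongating spermatids they were 5 and 12, 8 and 3, 9 and 1, and 4 and 20. Shares of all genes follow in the order TMM, median of ratios and UMIs per cell. At the first step 4.67%, 3.95% and 2.15% rose and 5.64%, 6.55% and 9.14% fell. At the second 18.6%, 13.1% and 37.2% rose and 9.31%, 14.4% and 3.27% fell. At the next 23.8%, 25.6% and 20.8% rose and 21.1%, 16.4% and 29.8% fell. At the last 12.2%, 15.0% and 2.33% rose and 12.9%, 9.89% and 49.0% fell. UMIs per cell moved the all-gene median to 0.77 at early to late spermatocytes and to -1.09 at round to elongating spermatids. Relative to the all-gene median, the members' median stood at -0.51, -0.49, -0.22 and 0.01 in CPM and at -0.54, 0.06, -0.29 and -0.10 as UMIs per cell. The changes counted under all 4 scalings were falls of Kif7, Kif26a and Kif4 at the first step, rises of Kif9, Kif19a and Kif6 and the fall of Kif4 at the second, rises of Kif16bos, Kif17, Kif1bp, Kif2b and Kif21a and falls of Kif24, Kif15, Kif19a, Kifc5b, Kif6, Kif5b and Kif11 at the next, and at the last rises of Kif1a, Kif21b, Kif5c and Kif2c and the fall of Kif18a.

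**Figure D2:**
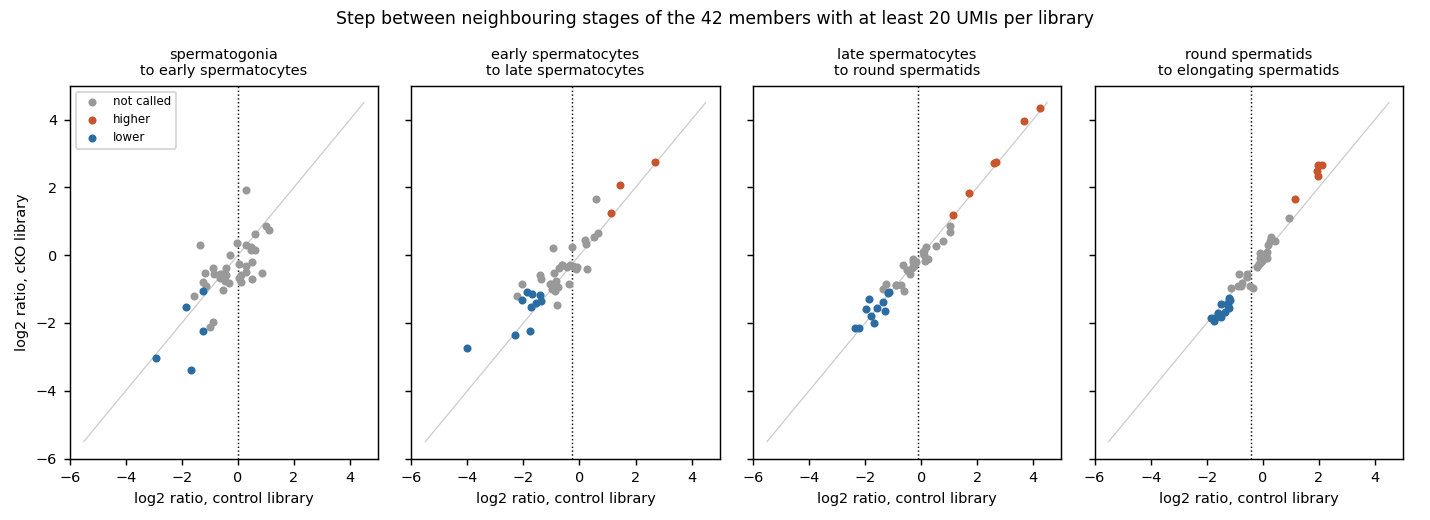
Log2 change of each member at the 4 stage steps, control library on the x axis and cKO library on the y axis, with a dotted line at the median of all genes and a grey line where the libraries are equal. Kif2b at late spermatocytes to round spermatids is at 4.23 in the control and 4.33 in the cKO library, from a level at background.

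Among the 16 spindle and chromosome motors, 2 fell at the first step, 3 at the second, 6 at the next and 8 at the last, while the only rises in CPM were those of Kif2b (late spermatocytes to round spermatids) and Kif2c (round to elongating spermatids). Falls over all genes were 6.99%, 19.9%, 23.6% and 26.8% at these steps. After TMM the spindle motors gave 1, 2, 5 and 2 falls, after median-of-ratios scaling 2, 2, 4 and 1, and as UMIs per cell 2, 1, 9 and 10, with 8 rises from early to late spermatocytes. Falls over all genes were 5.64%, 9.31%, 21.1% and 12.9% after TMM, 6.55%, 14.4%, 16.4% and 9.89% after median-of-ratios scaling and 9.14%, 3.27%, 29.8% and 49.0% as UMIs per cell, where 37.2% rose from early to late spermatocytes. Kif11, the bipolar motor that pushes spindle poles apart, stood at 149 CPM (129 to 171) and 91.5 CPM (73.9 to 112) in spermatogonia and at 62.8 and 43.5 in early spermatocytes. It was at 30.8 and 23.5 in late spermatocytes, 9.6 and 7.26 in round spermatids and 4.74 and 3.4 in elongating spermatids. Both libraries gave the same order, and against a free RNA of 9.16 and 11.5 the elongating spermatid levels were at background.

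Kif4, a chromokinesin that works with Prc1 at the spindle midzone, was the only member on the X chromosome. Its level was 81.4 CPM (66.9 to 98.2) and 61.0 (46.8 to 78.2) in spermatogonia and 34.1 and 12.1 in early spermatocytes. In late spermatocytes it was 1.16 and 0.96, and it stayed at 1.31 and 1.12 in round spermatids. The late spermatocyte levels were under the free RNA of 1.25 and 2.54, so no expression was read from them. The fall from early to late spermatocytes passed the rule under every scaling tried. Early spermatocytes with more Stra8 and Prdm9 UMIs had Kif4 intervals that overlapped those in spermatogonia in both libraries. Those with more Meiob and Rad51ap2 were lower, and these values are given with the genotypes below. The counted fall from spermatogonia is thus that of early spermatocytes as a whole, and their mix of these cells differed between the libraries.

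Kif23, the motor subunit of centralspindlin, which acts in cytokinesis and is found in the bridges that join germ cells, was 129 and 116 CPM in spermatogonia, 90.0 and 56.5 in early spermatocytes and 34.3 and 34.2 in late spermatocytes. Splitting the stages showed that it did not fall evenly. Early spermatocytes with more Stra8 and Prdm9 UMIs, the start of meiotic prophase, had 244 (203 to 290) and 214 (138 to 316), while those with more Meiob and Rad51ap2 had 48.4 and 33.9. Late spermatocytes with more Piwil1 had 17.7 (16.3 to 19.2) and 18.2 (16.4 to 20.04), and those with more Ccna1, a cyclin of late prophase, had 79.9 (74.6 to 85.4) and 74.1 (68.4 to 80.1). Over these groups Kif23 was highest in the Stra8 and Prdm9 cells, lower in the Meiob and Rad51ap2 and the Piwil1 cells and higher again in the Ccna1 cells in both libraries in CPM. The Stra8 and Prdm9 cells also read above spermatogonia in both libraries, so spermatogonia were its highest stage only with early spermatocytes unsplit. Free RNA held 19.99 and 15.4, close to the Piwil1 level.

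The other motors of the spindle and of cytokinesis were mostly highest in spermatogonia in CPM. For Kif20a, Kif15, Kif18a, Kif22, Kif14, Kif18b and Kifc1 the intervals in spermatogonia overlapped those in early spermatocytes in at least 1 library. Their counts therefore do not set these stages apart in both libraries, and Kif18b was highest in early spermatocytes in the cKO library. Kif20b, a midzone motor of cytokinesis, was 208 and 170 CPM in spermatogonia, 115 and 115 in early and 105 and 86.5 in late spermatocytes, and it fell to 40.3 and 32.3 in round and 13.6 and 11.2 in elongating spermatids. Kif20a, which carries the Aurkb complex to the midzone, was 75.4 and 75.8 in spermatogonia and 46.2 and 40.0 in late spermatocytes, and fell to 19.7 and 18.0 in round spermatids. Kif15, a partner of Kif11 in keeping the spindle bipolar, was 108 and 90.6 in spermatogonia and 63.2 and 48.4 in late spermatocytes, and fell to 19.0 and 11.4 in round spermatids, which was at background. The levels of all of these in elongating spermatids were at or under free RNA in both libraries.

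Kif18a, which damps chromosome movements at the metaphase plate, was 71.7 and 53.2 CPM in spermatogonia, 27.2 and 20.9 in late spermatocytes and 22.7 and 17.6 in round spermatids, and fell to 5.59 and 4.11 in elongating spermatids, at background. Kif22, a chromokinesin that pushes chromosome arms, was 52.3 and 53.2 in spermatogonia and 16.0 and 20.4 in late spermatocytes. Kif14, which acts in cytokinesis, was 38.8 and 26.6 in spermatogonia and 9.11 and 7.63 in late spermatocytes. Kif24, a centriolar depolymerase, was highest in early spermatocytes in CPM, at 36.3 and 17.7, with intervals that overlapped those in spermatogonia in at least 1 library. After TMM and as UMIs per cell it was highest in late spermatocytes. Kif24 fell from 21.7 and 13.4 in late spermatocytes to 4.75 and 3.73 in round spermatids. Kif18b, which acts on astral microtubules, had few UMIs in spermatogonia, 29 and 11, and was 21.7 and 10.8 there. Like Kif23, Kif18b and Kif22 were higher in the Ccna1 than in the Piwil1 late spermatocytes: Kif18b stood at 21.9 and 19.9 against 5.27 and 5.86, and Kif22 at 29.0 and 31.0 against 11.5 and 16.3. The minus-end motor Kifc1 was 14.2 and 10.8 in spermatogonia and 2.93 and 2.01 in late spermatocytes. Kifc5b, a near-identical copy of Kifc1, was 11.2 and 17.7 in early and 2.58 and 3.00 in late spermatocytes, and the split of reads between the copies is uncertain.

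The kinesin-13 motors Kif2a, Kif2b and Kif2c do not walk but remove tubulin from microtubule ends, and in CPM each was highest at a different stage. After median-of-ratios scaling Kif2a was highest in round spermatids in both libraries, as Kif2b was under all 4 scalings, and Kif2c was highest in elongating spermatids under all 4. Kif2a was 224 and 169 CPM in spermatogonia and 344 and 264 in early spermatocytes, and reached 491 (485 to 498) and 387 (380 to 394) in late spermatocytes. Within late spermatocytes it was 423 and 317 in the Piwil1 and 682 and 554 in the Ccna1 cells. It was 388 and 299 in round spermatids and fell to 169 and 124 in elongating spermatids, against a free RNA of 136 and 127. Kif2b was 43.6 (41.6 to 45.5) and 31.9 (30.0 to 34.0) in late spermatocytes and 835 (824 to 845) and 664 (654 to 673) in round spermatids. The late spermatocyte level was under the free RNA of 249 and 218, and the round spermatid level was 3.35 and 3.05 times free RNA. Kif2b then fell to 352 and 235 in elongating spermatids. In spermatogonia it read 117 and 58.1 and in early spermatocytes 163 and 68.6, also under free RNA, so its counted fall from early to late spermatocytes is between background levels. Kif2c was 115 and 92.5 in spermatogonia, 53.4 and 50.9 in late spermatocytes and 92.9 and 68.6 in round spermatids, and rose to 369 (364 to 375) and 350 (344 to 357) in elongating spermatids, above the free RNA of 101 and 82.0, which the late spermatocyte and round spermatid levels were under. Within round spermatids, cells with more UMIs of the spermatocyte list had 436 and 377 CPM of Kif2b and those with more of the spermatid list 969 and 753.

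**Figure D3:**
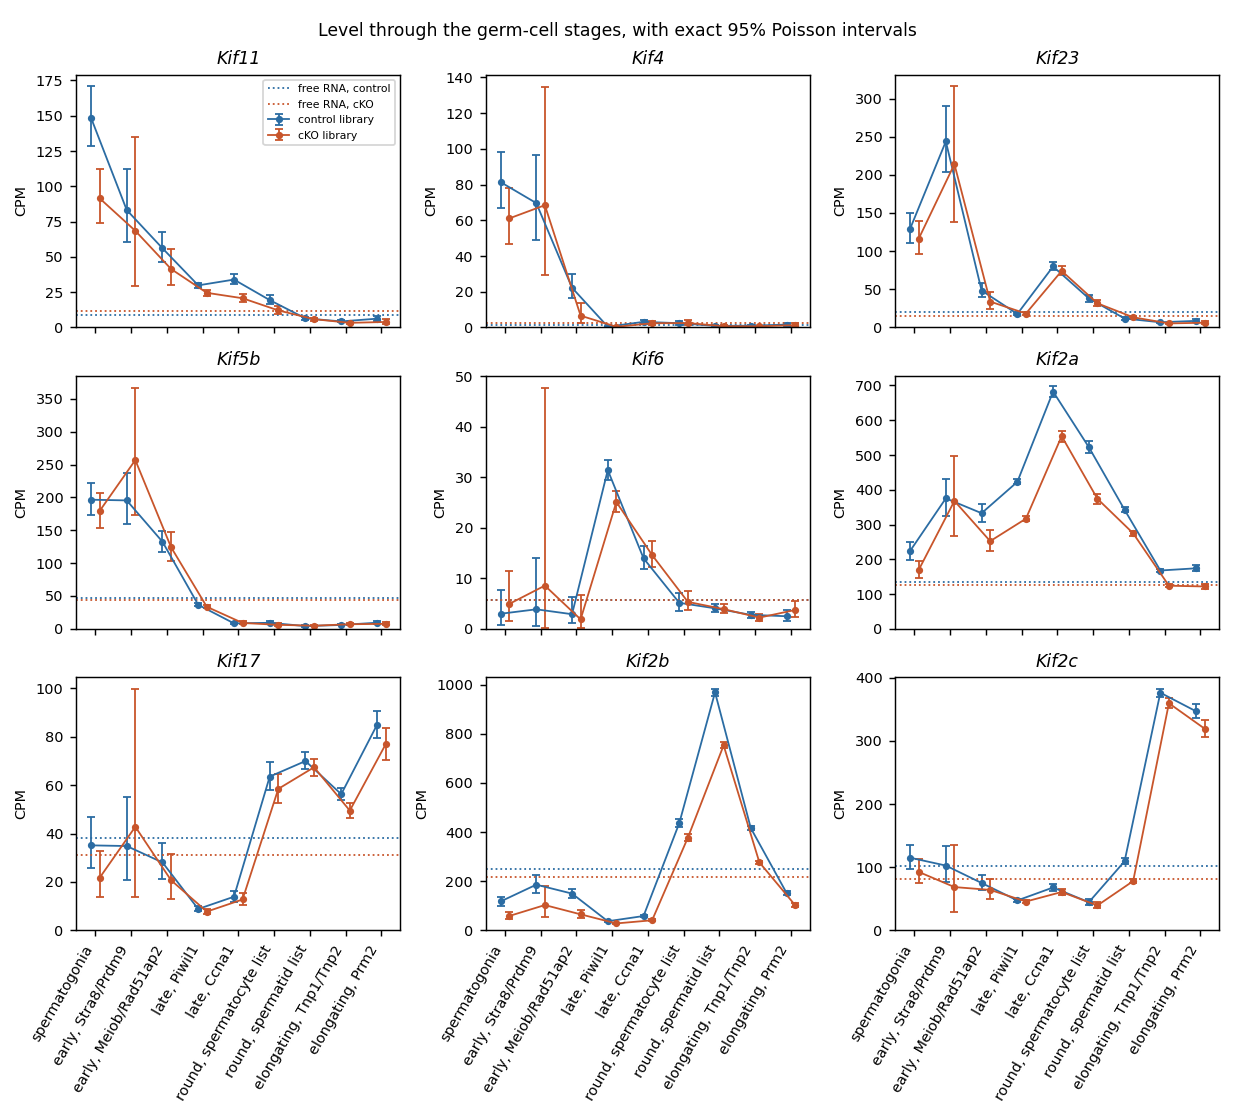
CPM (linear axis, own scale in each panel) of Kif11, Kif4, Kif23, Kif5b, Kif6, Kif2a, Kif17, Kif2b and Kif2c in spermatogonia and the sub-stages of later germ cells, points with exact Poisson 95% intervals for the control and cKO libraries and dotted lines at each library's free RNA. Kif4 is at 0.40 and 0.36 CPM in the late spermatocytes with more Piwil1, and Kif2b peaks at 969 and 753 CPM in the round spermatids with more of the spermatid list.

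The promoters of spindle motors are shown because most windows of this list hold TTTGAA, a short element known from cell-cycle genes. RefSeq promoter windows on GRCm38.p6 (the mm10 build), 250 bases before and 50 bases after the annotated start, were found for 34 of the 44 members. Each was searched on both strands for TTTGAA, the core of the CHR element of cell-cycle genes, for the CCAAT box and for the cyclic-AMP response element (CRE) TGACGTCA. The capitals mark the matches, and a match on the other strand reads as its reverse complement. In 28 of the 34 members every window's start lies within 500 bases of the 5′ end of the RefSeq gene. The exceptions lie inside the gene, at 9798 bases from that end in Kif27, 3852 in Kif2c, 2234 in Kif26a, 1668 in Kif3a and 1547 in Kif14, and at 19559 in the second window of Kif1a. What is said of these windows does not speak for the 5′ end of the gene. The windows of 4 motors highest in spermatogonia among the unsplit stages in CPM are followed by that of Kif2b, highest in round spermatids. They lie at chr19:37376132-37376431 on the plus strand (Kif11), chr9:61946750-61947049 on the minus strand (Kif23), chrX:100625815-100626114 plus (Kif4), chr19:34922108-34922407 plus (Kif20b) and chr11:91577506-91577805 minus (Kif2b). Each of these 5 covers an annotated start and the first bases of the transcript.
Kif11: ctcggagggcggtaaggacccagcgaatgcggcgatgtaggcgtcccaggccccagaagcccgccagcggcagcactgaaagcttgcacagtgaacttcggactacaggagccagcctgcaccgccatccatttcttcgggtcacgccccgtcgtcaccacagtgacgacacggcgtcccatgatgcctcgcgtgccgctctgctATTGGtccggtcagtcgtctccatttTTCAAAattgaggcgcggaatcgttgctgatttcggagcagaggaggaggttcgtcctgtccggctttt
Kif23: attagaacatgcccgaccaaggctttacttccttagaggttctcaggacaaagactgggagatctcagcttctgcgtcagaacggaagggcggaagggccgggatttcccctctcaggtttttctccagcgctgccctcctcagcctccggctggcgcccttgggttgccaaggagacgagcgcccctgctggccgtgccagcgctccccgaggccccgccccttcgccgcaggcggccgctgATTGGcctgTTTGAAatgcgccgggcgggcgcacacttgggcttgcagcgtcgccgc
Kif4: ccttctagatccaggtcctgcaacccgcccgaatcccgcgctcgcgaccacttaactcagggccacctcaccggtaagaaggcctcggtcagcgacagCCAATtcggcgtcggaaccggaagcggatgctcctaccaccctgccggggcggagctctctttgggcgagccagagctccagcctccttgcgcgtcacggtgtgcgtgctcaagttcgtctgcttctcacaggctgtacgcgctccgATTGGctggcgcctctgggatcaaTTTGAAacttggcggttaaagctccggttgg
Kif20b: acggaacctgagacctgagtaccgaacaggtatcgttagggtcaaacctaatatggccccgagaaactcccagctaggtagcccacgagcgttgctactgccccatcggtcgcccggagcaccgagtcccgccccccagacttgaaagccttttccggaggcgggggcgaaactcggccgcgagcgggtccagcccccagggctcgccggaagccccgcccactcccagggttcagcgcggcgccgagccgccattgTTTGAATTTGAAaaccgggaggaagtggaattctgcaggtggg
Kif2b: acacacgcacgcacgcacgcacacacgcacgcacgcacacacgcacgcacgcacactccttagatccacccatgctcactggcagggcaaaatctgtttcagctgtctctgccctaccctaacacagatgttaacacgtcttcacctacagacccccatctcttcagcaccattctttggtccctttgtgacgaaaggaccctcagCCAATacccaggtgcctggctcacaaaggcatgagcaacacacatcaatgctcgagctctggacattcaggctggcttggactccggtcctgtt
Counting the annotated start base as 0, the first base of the match stood at -45 (CCAAT) and -19 (CHR) in Kif11, at -7 and 2 in Kif23, at -152 and -5 (CCAAT) and 19 (CHR) in Kif4, at 7 and 13 (both CHR) in Kif20b and at -44 (CCAAT) in Kif2b. TTTGAA was in the promoter windows of 14 of 34 members (41.2%) and of 18.6% of the 20267 genes with a window, and CCAAT in 17 of 34 (50.0%) and 41.7%. By role, TTTGAA was in 11 of 15 spindle motors, 1 of 8 cilium and flagellum motors and 1 of 7 cargo motors, and CCAAT in 10 of 15, 4 of 8 and 1 of 7. In the 28 members whose windows all lie near the gene's 5′ end, TTTGAA was in 10 (35.7%, 17.3% of all genes so restricted), 9 of 13 spindle motors among them. A match is only a match of letters.

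In cKIT+ spermatogonia, 19 of the 34 members with a promoter window (55.9%) had one under an ATAC-seq region in all 5 lists, against 29.7% of all genes. By highest stage this held for 12 of 17 members highest in spermatogonia, 3 of 4 highest in early spermatocytes, 2 of 3 in late spermatocytes, 1 of 4 in round spermatids and 1 of 5 in elongating spermatids. Kif11, Kif23, Kif4 and Kif20b were covered in all 5 lists. Kif2b, highest in round spermatids, was covered in 1 list, and its window lies at the gene's 5′ end. The windows of Kif2c and Kif27, highest in elongating spermatids, were covered in 0 lists. The windows of Kif2c, Kif27 and Kif14 lie inside the gene. Kif14, Kif3c, Kif1a and Kif12 were also covered in at most 1 list. Among the 28 members with windows near the gene's 5′ end, 17 (60.7%) were covered in all 5 lists, against 29.4% of genes so restricted: 10 of 14 highest in spermatogonia, 3 of 4 in early spermatocytes, 2 of 3 in late spermatocytes, 1 of 4 in round and 1 of 2 in elongating spermatids. H3K27me3 regions covered the window of Kif1a near its 5′ end and those of Kif12 and Kif26a in all 5 lists. These were 8.82% of members, beside 4.12% of all genes. With windows near the gene's 5′ end only, they were 1 of 28 members (3.57%), beside 3.5% of genes. Kif26b was covered in 4 lists and Kif5c in 2. The windows of 29 members (85.3%) were in none, near the 83.4% of all genes. The IgG control list covered no member's window. The window of Kif26a inside the gene was covered by both kinds of region in every list. The 5 lists were called separately, and they differ in how much they cover, from 31.8% to 52.8% of all promoters for the ATAC-seq lists.

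The 9 cilium and flagellum motors gave 3 of the 3 rises from early to late spermatocytes, with 1 fall, where 9.9% of all genes rose and 19.9% fell. After TMM, median-of-ratios scaling and as UMIs per cell they gave 4, 3 and 6 rises and 0 falls, where 18.6%, 13.1% and 37.2% of all genes rose. Kif9 belongs to the central apparatus of motile flagella, and Kif6 is of the same kinesin-9 family. Kif6 was 2.99 and 4.92 CPM in spermatogonia and 3.26 and 2.42 in early spermatocytes, then 26.8 (25.3 to 28.4) and 22.0 (20.3 to 23.7) in late spermatocytes. It fell to 4.47 and 4.22 in round spermatids, so among the germ-cell stages it stood above its free RNA of 5.69 and 5.68 in late spermatocytes only. Among these it was 31.4 and 25.1 in the Piwil1 and 13.97 and 14.6 in the Ccna1 cells. Kif19a, a depolymerase that sets the length of motile cilia, moved like it, from 2.54 and 0.81 to 8.67 and 6.64 and down to 1.79 and 1.22, with 7 and 1 UMIs in early spermatocytes, where it was at background, as in round spermatids. Kif9 rose from 53.0 and 45.2 in early to 116 (113 to 119) and 109 (105 to 112) in late spermatocytes and was 131 and 128 in round and 88.9 and 81.6 in elongating spermatids. Its free RNA was 92.7 and 84.8, so the earlier levels and the elongating ones were under it.

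Kif17 is a kinesin-2 motor that in spermatids is known to carry the CREM coactivator Fhl5 (ACT) between nucleus and cytoplasm. It was 35.1 and 21.7 CPM in spermatogonia, 29.0 and 21.8 in early and 10.4 (9.44 to 11.3) and 9.16 (8.13 to 10.3) in late spermatocytes, all under the free RNA of 38.2 and 31.1. In round spermatids it was 68.3 (65.3 to 71.4) and 65.3 (62.3 to 68.3), above free RNA, and in elongating spermatids 63.2 and 55.9. Its promoter is shown because CRE is the element that CREM binds, and Kif17, Kif5c and Kif18a were the 3 members of 34 (8.82%) with the whole element, which was in 2.46% of all promoters. In Kif17 the match, in capitals, starts at -86 in the window chr4:138262001-138262300 on the plus strand.
Kif17: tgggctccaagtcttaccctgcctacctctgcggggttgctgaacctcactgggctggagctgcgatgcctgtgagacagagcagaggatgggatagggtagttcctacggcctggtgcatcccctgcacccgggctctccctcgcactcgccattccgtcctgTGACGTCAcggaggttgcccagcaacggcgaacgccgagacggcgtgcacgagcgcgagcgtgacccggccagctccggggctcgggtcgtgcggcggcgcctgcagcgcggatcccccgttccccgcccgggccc
An ATAC-seq region of the cKIT+ spermatogonia covered the window in 4 of 5 lists, 2 of 2 control and 2 of 3 cKO, and no H3K27me3 region did.

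Kif3a and Kif3b form the motor of heterotrimeric kinesin-2, which carries intraflagellar transport trains outward with the adaptor Kifap3. Kif3a was 267 (240 to 297) and 246 (217 to 279) CPM in spermatogonia and 213 and 211 in late spermatocytes, and fell from 174 and 183 in round to 51.4 and 47.0 in elongating spermatids, under its free RNA of 75.1 and 73.7. Kif3b, with a free RNA of 69.7 and 59.2, was at background in spermatogonia (52.3 and 48.2) and in elongating spermatids (35.7 and 23.8). It was 114 and 81.5 in early and 182 (178 to 186) and 129 (125 to 133) in late spermatocytes, and fell to 81.3 and 60.8 in round spermatids, a fall counted in CPM and as UMIs per cell but not after TMM or median-of-ratios scaling. Kif3b was highest in late spermatocytes in both libraries under all 4 scalings (CPM, TMM, median of ratios and UMIs per cell). The stage where Kif3a was highest depended on the scaling: spermatogonia in CPM, late spermatocytes after TMM and as UMIs per cell, and round spermatids after median-of-ratios scaling, in both libraries. Kif3c, the alternative partner of Kif3a, stayed at 2.95 CPM or under at every germ-cell stage. Kif27, a relative of Kif7, rose from 72.6 and 49.3 in late spermatocytes to 161 and 114 in round spermatids, with 218 (214 to 223) and 154 (149 to 158) in elongating spermatids, over a free RNA of 85.4 and 65.1, which its late spermatocyte level was under. Kif7, a regulator of Hedgehog signalling in cilia, was 14.9 and 13.8 in spermatogonia, with 20 and 14 UMIs, and 1.09 and 0.81 in early spermatocytes, with 3 and 1.

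Cargo motors gave 6 of the 10 falls from early to late spermatocytes in CPM, those of Kif5a, Kif5b, Kif5c, Kif1b, Kif13b and Kif21a, beside 19.9% of all genes. After TMM 1 of the 6, Kif5b, passed the rule and after median-of-ratios scaling 4. As UMIs per cell 0 passed, and Kif5c, Kif1b and Kif13b turned in direction. Kif5c and Kif21a were at or under free RNA in both stages and both libraries, so their falls are between background levels. Kif5b, the widely expressed heavy chain of conventional kinesin, was 196 (173 to 222) and 179 (154 to 207) CPM in spermatogonia and 148 and 138 in early spermatocytes. It fell to 29.1 and 26.2 in late spermatocytes and to 5.54 and 5.13 in round spermatids. Free RNA held 46.6 and 44.4, so from late spermatocytes on Kif5b was at background. Kif5a, a heavy chain best known from neurons, was 24.6 and 22.6 in spermatogonia, fell to 6.17 and 7.26 in early and to 1.18 and 1.85 in late spermatocytes. Kif5c, also a neuronal heavy chain, went the other way at the end: it was 17.9 and 14.8 in spermatogonia, 3.13 and 2.68 in late spermatocytes and 7.53 and 4.96 in round spermatids, and rose to 35.8 and 36.7 in elongating spermatids, over a free RNA of 12.4 and 11.4, which the late spermatocyte and round spermatid levels were under. The heavy chains of 1 motor were thus highest at opposite ends of the series of stages.

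Kif21b and Kif21a hold back microtubule growth. Kif21b was 25.4 and 11.8 CPM in spermatogonia and 7.02 and 4.43 in round spermatids, and rose to 30.2 (28.6 to 31.9) and 33.4 (31.4 to 35.6) in elongating spermatids, over a free RNA of 13.2 and 10.2, which the round level was under. Kif21a rose from 2.05 and 1.66 in late spermatocytes to 18.6 and 16.8 in round spermatids, above its free RNA of 18.3 and 20.04 in the control library only. Kifc3, a minus-end motor, rose from 19.6 and 13.7 in round to 44.8 and 45.3 in elongating spermatids, over a free RNA of 24.8 and 17.05, which the round level was under. Kif1a, a vesicle motor of neurons, rose from 1.55 and 0.70 to 8.64 and 8.53 at the same step and was still under its free RNA of 11.7 and 11.1, so no expression was read from it. Kif1b, a kinesin-3 motor of mitochondria and vesicles, was 112 and 115 in spermatogonia and 115 and 71.8 in early spermatocytes, and fell to 35.0 and 32.2 in late spermatocytes. Kif13b fell from 50.8 and 35.5 in early to 18.9 and 13.1 in late spermatocytes and again to 4.47 and 4.75 in round spermatids, under its free RNA of 11.4 and 9.57. Kif16b, a motor of early endosomes, was 42.4 and 30.6 in early spermatocytes and fell from 13.6 and 11.7 in round to 5.23 and 3.81 in elongating spermatids, at background. Kif1c was 20.2 and 6.89 in spermatogonia and at most 0.51 from late spermatocytes on. Kifc2 was 6.72 and 6.89 in spermatogonia and at most 1.09 from late spermatocytes on. Kif13a stayed at 3.94 or under at every germ-cell stage.

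Kif16bos rose from 2.51 (2.07 to 3.02) and 1.82 (1.38 to 2.36) CPM in late spermatocytes to 44.1 (41.8 to 46.6) and 42.9 (40.5 to 45.3) in round spermatids. It was 54.4 and 63.3 in elongating spermatids, over a free RNA of 17.8 and 19.4, which the late spermatocyte level was under. Kif16b on the other strand did not rise at that step, at 19.8 and 16.4 and then 13.6 and 11.7. Kif1bp rose from 31.8 and 27.7 to 107 and 100.3 in round spermatids and fell to 32.1 and 27.2 in elongating spermatids, with a free RNA of 43.3 and 41.7 above its late spermatocyte and elongating levels. Kif26a, an atypical kinesin without motor activity, was 12.7 and 17.7 in spermatogonia, 3.26 and 0.81 in early spermatocytes with 9 and 1 UMIs, and at most 0.14 later. Its relative Kif26b stayed at 2.95 or under.

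Genes that work with the motors were described from lists of partners and counted by the same rule. Those given with values were read against their own free RNA, but the counts include changes at background. In CPM both stages were at background for the falls of Birc5, Incenp, Cdc20 and Dync1h1 at the last step. The same held for the rise of Klc3 and the fall of Klc1 from late spermatocytes to round spermatids. The second-step rises of Aurka, Aurkb and Birc5 started at background, and many falls ended there. Of 16 spindle and cytokinesis partners, 0 rose and 3 fell at the first step, 3 rose and 4 fell at the second, 12 fell from late spermatocytes to round spermatids and 8 fell at the last step, beside falls of 6.99%, 19.9%, 23.6% and 26.8% over all genes. The 12 falls became 10 after TMM, 9 after median-of-ratios scaling and 13 as UMIs per cell. The 8 at the last step became 4, 3 and 13, and the 3 rises and 4 falls at the second became 4 and 1, 4 and 3, and 12 and 0. Under these scalings 21.1%, 16.4% and 29.8% of all genes fell from late spermatocytes to round spermatids. At the last step 12.9%, 9.89% and 49.0% fell. At the second step 18.6%, 13.1% and 37.2% rose and 9.31%, 14.4% and 3.27% fell. Prc1, which bundles midzone microtubules and recruits Kif4, was 367 and 285 CPM in late spermatocytes, where Kif4 was at background, and 36.1 and 26.1 in round spermatids, under its free RNA of 61.9 and 61.3. Cenpf, a kinetochore protein, was 1117 and 977 in spermatogonia and 52.5 and 40.6 in elongating spermatids, under its free RNA of 112 and 106. The 10 dividing-cell genes gave 2, 3, 6 and 4 falls and no rise at the 4 steps in CPM. The 2 falls at the first step became 5 as UMIs per cell, where 9.14% of all genes fell. The 6 stood under all 4 scalings, while early to late spermatocytes gave 2 rises after TMM and 5 rises and 1 fall as UMIs per cell, and the last step gave 1 rise after median-of-ratios scaling and 2 to 6 falls over the scalings. Among them Ccnb2 was 221 and 261 in late and 226 and 266 in round spermatids, and Cdc20 went from 236 and 276 to 72.7 and 82.4, under its free RNA of 84.7 and 93.5. The spindle motors gave 1 rise and 6 falls of 16 at late spermatocytes to round spermatids.

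Of 10 light chains, adaptors and regulators of kinesins, 2 rose and 4 fell from late spermatocytes to round spermatids, and 2 rose and 3 to 5 fell under the other scalings, beside 21.8% and 23.6% of all genes in CPM. Kifap3, the adaptor of Kif3a and Kif3b, rose from 101 and 104 CPM to 280.0 and 291 there, above its free RNA of 92.0 and 92.4 in both stages. Klc3, a light chain of developing spermatids, was 17.9 and 8.10 in round and 97.7 and 79.0 in elongating spermatids, with a free RNA of 24.8 and 15.9 above the round level. Of 11 dynein and dynactin genes, the minus-end counterpart of the kinesins, 1 rose and 4 fell from late spermatocytes to round spermatids and 5 fell at the last step. In CPM 23.6% and 26.8% of all genes fell at these steps. From late spermatocytes to round spermatids these genes gave 1 rise and 2 falls after TMM, 2 and 2 after median-of-ratios scaling and 1 and 4 as UMIs per cell. At the last step they gave 2 and 2, 2 and 1, and 0 and 7. Over all genes 23.8%, 25.6% and 20.8% rose and 21.1%, 16.4% and 29.8% fell under these scalings from late spermatocytes to round spermatids. At the last step 12.2%, 15.0% and 2.33% rose and 12.9%, 9.89% and 49.0% fell. Dynll2, a dynein light chain, went from 108 and 96.6 in late spermatocytes to 2224 and 2335 in elongating spermatids, and Dctn2, a dynactin subunit, from 163 and 158 in early to 549 and 578 in late spermatocytes. Free RNA was 879.8 and 755 for Dynll2, above its late spermatocyte level, and 337 and 329.6 for Dctn2, above its early spermatocyte level.

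In at least 1 of the somatic classes Kif5b, Kif21a, Kif1c and Kif13a read higher than in any germ-cell stage in both libraries. Kif5b was 241 (203 to 284) and 234 (194 to 280) CPM in Leydig cells and 249 (212 to 291) and 418 (367 to 473) in Sertoli cells. Kif21a was 209 (175 to 247) and 257 (218 to 301) in Sertoli cells, against 18.6 and 16.8 in round spermatids, its highest germ-cell stage. The intervals of Kif5b in Leydig cells overlapped those in spermatogonia in both libraries, and in Sertoli cells they did so in the control library. Kif1c was 39.1 and 36.8 in Leydig cells and 0.00 and 1.69 in Sertoli cells, with 0 and 1 UMIs there, and its control interval in Leydig cells overlapped that in spermatogonia. Kif13a was 5.10 and 15.5 in Leydig cells, with 3 and 8 UMIs, and 2.55 and 3.94 in its highest germ-cell stage. These UMIs are too few to set its Leydig level apart from that level in either library. At or under free RNA in both libraries were 25 of 42 members in Leydig cells and 20 of 42 in Sertoli cells, beside 53.5% and 45.0% of all genes. The 2 classes rest on 70 to 104 cells per library, so most of their counts are small.

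The genotypes were compared within each stage. Kdm6a itself gave 94 UMIs in control and 5 in cKO early spermatocytes, a log2 ratio of -2.80 with an exact interval of -4.74 to -1.81. In spermatogonia it gave 25 and 10, in late spermatocytes 15 and 4, in round spermatids 34 and 6 and in elongating spermatids 43 and 8. The log2 intervals were -2.15 to 0.18 in spermatogonia and -3.43 to 0.27 in late spermatocytes, both of which include 0, -4.02 to -1.21 in round and -3.13 to -0.73 in elongating spermatids. In Leydig cells it gave 10 and 6 UMIs and in Sertoli cells 10 and 14. The counted 3′ tags may lie outside the deleted part, so they may show less than the deletion. A member was counted as lower or higher in the cKO library when it had at least 20 UMIs over both libraries in a class, a ratio of at least 2-fold and an exact binomial interval that did not include 1. This compares 2 libraries, not 2 conditions with replicates.

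In late spermatocytes, round spermatids and elongating spermatids, 0 members of 41, 36 and 37 were lower or higher by that rule. The shares of all genes were 0.0967%, 0.334% and 0.0658% lower and 0.00604%, 0.0298% and 0.0179% higher. In spermatogonia 3 of 33 members were lower (2.3% of all genes) and 0 higher (0.639%), and in early spermatocytes 3 of 33 were lower (4.61%) and 0 higher (0.643%). In Leydig cells 1 of 15 was lower (3.22%) and 0 higher (1.12%), and in Sertoli cells 3 of 16 were lower (3.55%) and 0 higher (1.49%). All the counted differences lay in the classes with the fewest cells.

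With TMM scaling, with a pseudocount of 5 CPM and with clusters in place of gates, 3 member and stage pairs were lower in the germ cells in place of 6. The 3 in spermatogonia were Kif2b, 157 and 59 UMIs with a log2 ratio of -1.001 (-1.47 to -0.57), Kif21b, 34 and 12 UMIs, and Kif1c, 27 and 7 UMIs. The 3 in early spermatocytes were Kif2b, 450 and 85 UMIs with a log2 ratio of -1.24 (-1.60 to -0.91), Kif27, 242 and 52 UMIs at -1.05 (-1.53 to -0.63), and Kif4, 94 and 15 UMIs at -1.42 (-2.39 to -0.70). Kif2b was under its free RNA in both of these classes and in both libraries, and so was Kif27 in cKO early spermatocytes. Spermatid transcripts moved with these members: the elongating-spermatid list was 18366 and 14305 CPM in spermatogonia and 19190 and 11637 in early spermatocytes, and its part in the result was not tested. In Sertoli cells the lower members were Kif2b (101 and 39 UMIs), Kif2a (122 and 50) and Kif17 (23 and 9). Kif2b and Kif17 were again under free RNA in both libraries there, beside 27373 and 21638 CPM of the spermatid list. In Leydig cells Kif13b had 17 and 5 UMIs.

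The make-up of the early spermatocytes also differed. Cells with more Stra8 and Prdm9 UMIs were 120 of the 521 in the control library (23.0%) and 26 of the 231 in the cKO library (11.3%), and those with more Meiob and Rad51ap2 were 359 and 190. Kif4 was 69.6 (48.8 to 96.4) and 68.5 (29.6 to 135) CPM in the Stra8 and Prdm9 cells, with 36 and 8 UMIs, and 22.2 (16.3 to 29.7) and 6.59 (2.65 to 13.6) in the Meiob and Rad51ap2 cells, with 46 and 7. In the Meiob and Rad51ap2 cells the log2 ratio was -1.61 (-3.15 to -0.60). Whether the ratio differed between these groups was not tested. Of the members with enough UMIs, 0 of 20 were lower in the Stra8 and Prdm9 cells (3.98% of all genes) and 6 of 31 in the Meiob and Rad51ap2 cells (3.99%), where they were Kif4, Kif2b, Kif18a, Kif24, Kif21a and Kifc3. Of these 6, Kif2b, Kif21a and Kifc3 were at or under free RNA in both libraries in early spermatocytes as a whole. Higher members numbered 0 in both groups, against 2.09% and 0.427% of all genes. These splits of the stages were made after the data were seen.

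**Figure D4:**
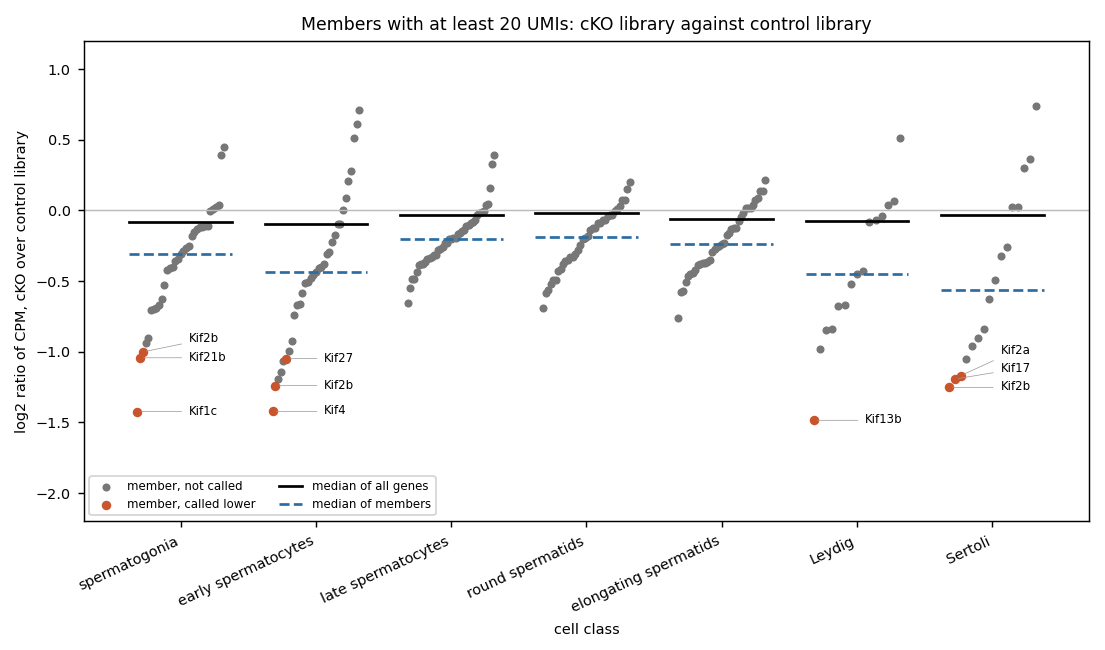
Log2 ratio of cKO to control CPM (y axis) of each member with at least 20 UMIs in each germ-cell stage and somatic class (x axis), one point per member, with the median of all genes in black and of the members as a blue dashed line; members counted as lower are named. The members' median lies under that of all genes in every class.

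Ratios below 0 on the log2 scale were found for 28 of 33 members in spermatogonia, 27 of 33 in early spermatocytes, 36 of 41 in late spermatocytes, 30 of 36 in round spermatids and 28 of 37 in elongating spermatids, where 57.97%, 58.6%, 56.1%, 52.8% and 62.7% of all genes were below 0. The members' median log2 ratios were -0.31, -0.43, -0.20, -0.19 and -0.24, beside -0.08, -0.10, -0.03, -0.02 and -0.06 over all genes. In the somatic classes 12 of 15 members in Leydig cells and 11 of 16 in Sertoli cells were below 0, with medians of -0.45 and -0.56, lower than in any germ-cell stage, beside 56.1% and 53.5% of all genes and medians of -0.07 and -0.03. These counts include members at background. Of the members above free RNA in at least 1 library, from spermatogonia to elongating spermatids 22 of 26, 18 of 24, 20 of 25, 19 of 22 and 5 of 10 had ratios below 0, with medians of -0.28, -0.41, -0.23, -0.17 and -0.03. In Leydig cells 6 of 7 such members were below 0 (median -0.09) and in Sertoli cells 5 of 10 (-0.15). All genes were not counted under this restriction. Whether these members lie lower than other genes above free RNA cannot be told from these counts. Of the 30 members with enough UMIs in all 5 stages, 3 had an interval below 1 in every stage, namely Kif2a, Kif2b and Kif11, as did 3.72% of the 9164 genes so counted. None had an interval above 1 in every stage (1.12% of genes). These ratios and intervals are in CPM only. The TMM factor, by which CPM is divided, was 1.80 in control and 1.64 in cKO spermatogonia and 1.62 and 1.47 in early spermatocytes. TMM thus raises the ratios there, and intervals in every stage were not counted under it. Kif2b was at background in both libraries in spermatogonia and in early and late spermatocytes, and Kif11 in elongating spermatids. Kif2a read -0.40 (-0.68 to -0.13), -0.38 (-0.57 to -0.20), -0.34 (-0.38 to -0.31), -0.38 (-0.42 to -0.34) and -0.45 (-0.51 to -0.40) from spermatogonia to elongating spermatids, under 2-fold throughout. Kif22, in contrast, had ratios above 0 in all 5 stages, from 0.02 to 0.51. Its interval was above 1 in 2 of these stages, and in elongating spermatids it was at background. The share of all genes with ratios above 0 in all 5 was not counted. With 1 animal or pool per genotype, the size of such ratios between libraries of 1 genotype is not known, and genotype, animal and library cannot be told apart.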

How the data were processed

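Single-cell UMI counts were deposited by the authors as 1 unfiltered matrix per library, made with Cell Ranger 4 per the file headers and mapped to mm10 per the submitters' processing notes, which also name Seurat 4.1.0. From these counts, barcodes with at least 3000 UMIs were kept. Cells were assigned to stages by the summed UMIs of marker lists per 10000 UMIs, with at least 3 marker UMIs: at least 40 for somatic lists, 6 for spermatogonia, 5 for early and 40 for late spermatocytes (with under 15 of the round and 500 of the elongating list), 25 for round and 1000 for elongating spermatids. Cells in more than 1 gate (241 control, 143 cKO) or none (756 and 466) were left out. No doublet caller was run. Id4 and Dmrtb1 were left out of the spermatogonial gate because they were highest in late spermatocytes, 6 of the 14 early-spermatocyte markers were used in their gate (Hormad1, M1ap, Mei1, Mei4, Meioc, Rec114, Sycp2 and Tex15 were left out), and Insl6 and Nme5 of the late list were highest in round spermatids. The members, lists and rules were chosen with earlier results of these data known, the gate thresholds were set after the files were seen, from marker genes alone, and the sub-stage splits were added after the data were seen. Members with at least 50 UMIs over the germ-cell stages were named with values. The partner genes given with values are the 2 counted genes with the most UMIs in each list. Intervals of ratios carry no pseudocount.

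ATAC-seq regions were called by the authors with MACS2 after cutadapt and Bowtie2, and H3K27me3 CUT&Tag regions with SEACR, per the submitters' processing notes. The deposited fold-enrichment ratio of each ATAC-seq region and the deposited signal of each CUT&Tag region were not used beyond defining the regions. A promoter was covered when at least 1 base overlapped (bedtools 2.31.1). Bulk RNA-seq tables name transcripts that could not be paired with genes here and were not used. Python 3.11.15, numpy 2.4.6, scipy 1.17.1 and scanpy 1.11.5 were used, with R 4.3.3, edgeR 4.0.16 (TMM) and DESeq2 1.42.0 (median of ratios) for scaling factors of the alternatives. The counting rules were tested on simulated data. Alternatives were other scalings, UMI minimums of 2000 and 5000, pseudocounts of 0.1 and 5, stricter gates and clusters in place of gates. Added after the data were seen were list counts and highest stages under the other scalings, promoter counts over members whose windows lie near the gene's 5′ end, and genotype counts over members above free RNA.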

Additional observations from a re-analysis of the deposited data

How the results depend on the processing

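No paired analysis was possible because each genotype had 1 library, and for the same reason no library could be left out. Counts of members that differed by more than 1.5 times from those reported were as follows. With TMM scaling, falls from spermatogonia to early spermatocytes numbered 3, early to late spermatocytes gave 6 rises and 3 falls, round to elongating spermatids gave 8 rises and 3 falls, member and germ-cell stage pairs lower in the cKO library numbered 3 where 6 were reported, and members highest in late spermatocytes 9. With median-of-ratios scaling, falls numbered 6 from early to late spermatocytes and 7 from late spermatocytes to round spermatids, and round to elongating spermatids gave 9 rises and 1 fall. As UMIs per cell, early to late spermatocytes gave 16 rises and 1 fall, falls numbered 17 at late spermatocytes to round spermatids and 20 at round to elongating spermatids, and 13 members were highest in spermatogonia, 1 in early and 16 in late spermatocytes. With a pseudocount of 5 CPM, falls numbered 5 from early to late spermatocytes and 7 from late spermatocytes to round spermatids, and lower pairs numbered 3. Clusters in place of gates gave 7 falls from round to elongating spermatids and 3 lower pairs. A minimum of 2000 UMIs gave 3 falls from spermatogonia to early spermatocytes. Shares of all genes for the steps and highest stages under the other scalings are given above. Of 42 members, the log2 change from early to late spermatocytes had the opposite sign to CPM in 10 after TMM, 4 after median-of-ratios scaling and 27 as UMIs per cell, and from round to elongating spermatids in 7, 11 and 7. Among changes counted in CPM the direction turned for 5 members under the alternatives run, all from early to late spermatocytes as UMIs per cell: the log2 ratio became 0.086 for Kif5c, 0.48 for Kif17, 0.44 for Kif1b, 0.38 for Kif2b and 0.44 for Kif13b. The cause of each change was not tested. Depth limits members with few UMIs, among them Kif7, Kif26a and Kif19a in early spermatocytes.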

Other observations

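Kif12, which had almost no UMIs in the cells, was found in free RNA. It was singled out after its values were seen. In barcodes with at least 3000 UMIs it had 2 UMIs in the control library and 0 in the cKO library, while the barcodes with at most 100 UMIs held 37 and 40, or 5.14 and 5.98 CPM. Kif1a was the other member whose free RNA, 11.7 and 11.1 CPM, stood above its level in every germ-cell stage and somatic class of both libraries; the highest of these were 8.64 CPM in the control and 9.67 CPM in the cKO library. The share of all genes with free RNA above every class was not counted, so how unusual these members are cannot be told. The promoter windows of both genes near the gene's 5′ end lay under H3K27me3 regions in all 5 lists of cKIT+ spermatogonia, as did 4.12% of all genes. A link between these regions and free RNA was not tested. No test of the differences between free RNA and cells was run.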
